A study of Mus musculus with 6 samples.

Results

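The miR-17~92 cluster is a run of 6 microRNA (miRNA) hairpins, Mir17, Mir18, Mir19a, Mir20a, Mir19b-1 and Mir92-1, that are cut from 1 long transcript. Its products were followed here in heart cardiomyocytes of C57BL/6 mice. Members were all mature rows of the deposited count table named miR-17, miR-18a, miR-19a, miR-20a, miR-19b or miR-92a once the arm suffix and the genomic copy number were dropped. This gave 14 mature rows of 1952 in all, of which 13 had at least 1 count. Members were picked by name and not by measured values, though with earlier results of these data known. Of the 14 rows, 10 passed the filter on low counts and were tested.

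The series held 6 small RNA libraries. Adult wild-type mice gave 2 libraries and adult LncSync-/- mice, which lack the long non-coding RNA lncSync, gave 2. Embryonic hearts at e13.5 (the embryonic day) gave 1 wild-type and 1 LncSync-/- library. All were labelled cardiomyocyte, from heart tissue, with no treatment named. The sources used here do not give how the knockout allele was made, the age of the adults or whether hearts were pooled. They do not name replicates as separate animals either, and p-values then reflect only how far these libraries differ, which may be technical.

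In the mouse, the cluster's host transcript is induced by MYC and E2F factors, and its miRNAs are known for promoting proliferation and survival in growing tissues. Loss of the cluster in mice is lethal around birth, with defects of the lung and heart. In cardiomyocytes it has been linked to proliferation. A miRNA finds its targets mainly through its seed, bases 2 to 8 counted from the 5′ end, and the 6 hairpins yield 4 seed families. Targets of the miR-17 and miR-20a seed include the cell-cycle inhibitor p21, and miR-92a acts in the vessel wall. Of the pair of strands (arms) that each hairpin gives, 5p and 3p, 1 is usually kept as the guide and the other is mostly degraded.

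The mature sequences that the results turn on are printed 5′ to 3′ with the seed in capitals, as RefSeq gives them on GRCm38.p6, and 13 of the 14 rows had an entry. They are shown to let the shared and the differing seeds be read.
miR-17-5p: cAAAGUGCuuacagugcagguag
miR-20a-5p: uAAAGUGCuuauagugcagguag
miR-18a-5p: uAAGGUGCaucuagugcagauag
miR-19a-3p: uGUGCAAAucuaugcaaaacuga
miR-19b-3p: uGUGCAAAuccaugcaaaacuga
miR-92a-3p: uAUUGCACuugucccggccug
miR-17-5p and miR-20a-5p share the seed AAAGUGC and differ at 2 of 23 positions (C1U and C12U, miR-17-5p first, positions from the 5′ end). miR-18a-5p has the seed AAGGUGC. miR-19a-3p and miR-19b-3p share GUGCAAA and differ by U11C alone, and miR-92a-3p carries AUUGCAC.

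The 6 hairpins lie on the plus strand of chromosome 14 within 836 bp, in GENCODE M21 on GRCm38, the build called mm10 in the submitters' processing notes. Mir17 occupies 115043671 to 115043754, Mir18 115043851 to 115043946 and Mir19a 115044000 to 115044081. Mir20a follows at 115044157 to 115044263, Mir19b-1 at 115044305 to 115044391 and Mir92-1 at 115044427 to 115044506. All 6 fall in exonic sequence of the annotated transcript of the lincRNA Mir17hg (115042879 to 115046727). Mature miR-19b-3p and miR-92a-3p each also come from a second hairpin, Mir19b-2 and Mir92-2, in a paralogous cluster on the X chromosome (52741838 to 52741928 for Mir92-2, 52741983 to 52742066 for Mir19b-2, minus strand). These rows therefore cannot be ascribed to 1 cluster by the mature count. The arms specific to the X-linked copies, miR-19b-2-5p and miR-92a-2-5p, had 0 and 1 counts over all 6 libraries, against 6 for miR-19b-1-5p and 164 for miR-92a-1-5p.

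Mature counts totalled from 14347091 to 17933518 in the adult libraries, 8944552 in the e13.5 wild-type and 2671957 in the e13.5 knockout library. Levels are given as CPM, counts scaled to the mature total of the library, and folds come from fits with TMM scaling, which corrects for a few abundant miRNAs taking up reads. The e13.5 knockout library stood apart with a TMM factor of 2.166, against 1.242 for e13.5 wild type and 0.5674 to 0.9616 for the adults, so its folds depend most on the scaling. Cardiac muscle miRNAs (miR-1a, miR-133, miR-208 and miR-499) held 28.2 to 39.5% of adult counts and 9.86 to 14.6% at e13.5. At e13.5 this was almost all miR-1a-3p, at 139960 CPM in wild type and 94848 CPM in knockout. By contrast, miR-133a-3p went from a mean of 155750 CPM in adults to 1702 CPM at e13.5 and miR-208a-5p from 854 to 1.31 CPM. Not all cardiac rows fell so far. miR-499-5p went from a mean of 5289 CPM in adults to 3651 CPM in e13.5 wild type and 2046 CPM in e13.5 knockout. miR-208a-3p overlapped between stages, at 60.5 to 141 CPM in adults and 61.7 and 12.35 CPM in the same embryonic libraries. Of 10 tested cardiac rows, 1 was called higher at e13.5 (miR-208b-3p), 8 lower, and miR-1a-3p did not pass (median log2 fold −4.06). miR-208b-3p was at 1.32 to 8.405 CPM in adults, 347 CPM in e13.5 wild type and 126 CPM in e13.5 knockout. By counts, the summed cardiac share in the embryonic libraries thus rests mostly on miR-1a-3p. Lost cells and less RNA per cell cannot be told apart in such bulk libraries.

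Across the cluster, the guide arms of 5 hairpins were far more abundant in embryonic than in adult heart cells, and the sixth, miR-92a-3p, was not. miR-17-5p, miR-18a-5p, miR-19a-3p, miR-19b-3p and miR-20a-5p were 4.05 to 11.5 times higher at e13.5 by the fitted fold. miR-92a-3p, the most abundant arm in each library, differed between stages by less than the fit could resolve. The star arm miR-20a-3p went down while its partner miR-20a-5p went up.

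miR-20a-5p, which represses cell-cycle inhibitors through the miR-17 seed, was the most abundant arm unique to the cluster. It was at 112 and 59.5 CPM in adult wild types, 73.5 and 83.9 CPM in adult knockouts, 1540 CPM in e13.5 wild type and 1401 CPM in e13.5 knockout. Both embryonic libraries lay far above the highest adult one. The fitted log2 fold, e13.5 over adult with genotype in the model, was 3.11 (SE 0.50, edgeR adjusted p = 0.000987), and miR-20a-5p was higher in 2 of 2 embryonic libraries.

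miR-17-5p, which names the family, was at 84.6 and 47.3 CPM in adult wild types, 68.6 and 55.5 CPM in adult knockouts, 611 CPM in e13.5 wild type and 443 CPM in e13.5 knockout. The groups of the stages did not overlap, and the log2 fold was 2.02 (SE 0.50, edgeR adjusted p = 0.00834). miR-18a-5p, a rarer arm with its own seed, was at 4.68 and 5.002 CPM in adult wild types and 4.46 and 4.2025 CPM in adult knockouts. At e13.5 it stood at 83.3 CPM in wild type and 49.4 CPM in knockout, and the log2 fold was 2.79 (SE 0.59, edgeR adjusted p = 0.00382). The adult values of miR-18a-5p lay within a narrow band and both embryonic values well above it.

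The miR-19 pair, known as the main oncogenic part of the cluster in lymphoma models, moved the same way. miR-19b-3p was at 28.0 and 17.03 CPM in adult wild types, 27.3 and 41.9 CPM in adult knockouts, 462 CPM in e13.5 wild type and 274 CPM in e13.5 knockout (log2 fold 2.73, SE 0.70, edgeR adjusted p = 0.00947). miR-19a-3p was at 2.57 and 0.893 CPM in adult wild types, 6.06 and 0.738 CPM in adult knockouts, 54.7 CPM in e13.5 wild type and 42.7 CPM in e13.5 knockout (log2 fold 3.52, SE 0.83, edgeR adjusted p = 0.00665). Adult miR-19a-3p rested on as few as 13 counts and differed widely between the knockout replicates, yet all 4 adult values were below both embryonic ones. Within the pair, miR-19b-3p was the more abundant in each library, by 4.51 to 56.8 times in adults and 6.41 and 8.45 times at e13.5, so their balance overlapped between stages.

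miR-92a-3p, the last hairpin's guide, was at 2237 and 1770 CPM in adult wild types, 2883 and 1055 CPM in adult knockouts, 1549 CPM in e13.5 wild type and 5042 CPM in e13.5 knockout. The e13.5 wild-type value lay inside the adult range and the e13.5 knockout value above it. Its log2 fold was −0.48 (SE 0.45, edgeR adjusted p = 0.375) and changed sign with the scaling, at 0.29 after median-of-ratios scaling and 0.58 on library totals. In the wild-type libraries alone miR-92a-3p passed as lower (log2 fold −0.95, edgeR adjusted p = 0.0184), with its spread taken from 2 adult libraries.

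**Figure D1:**
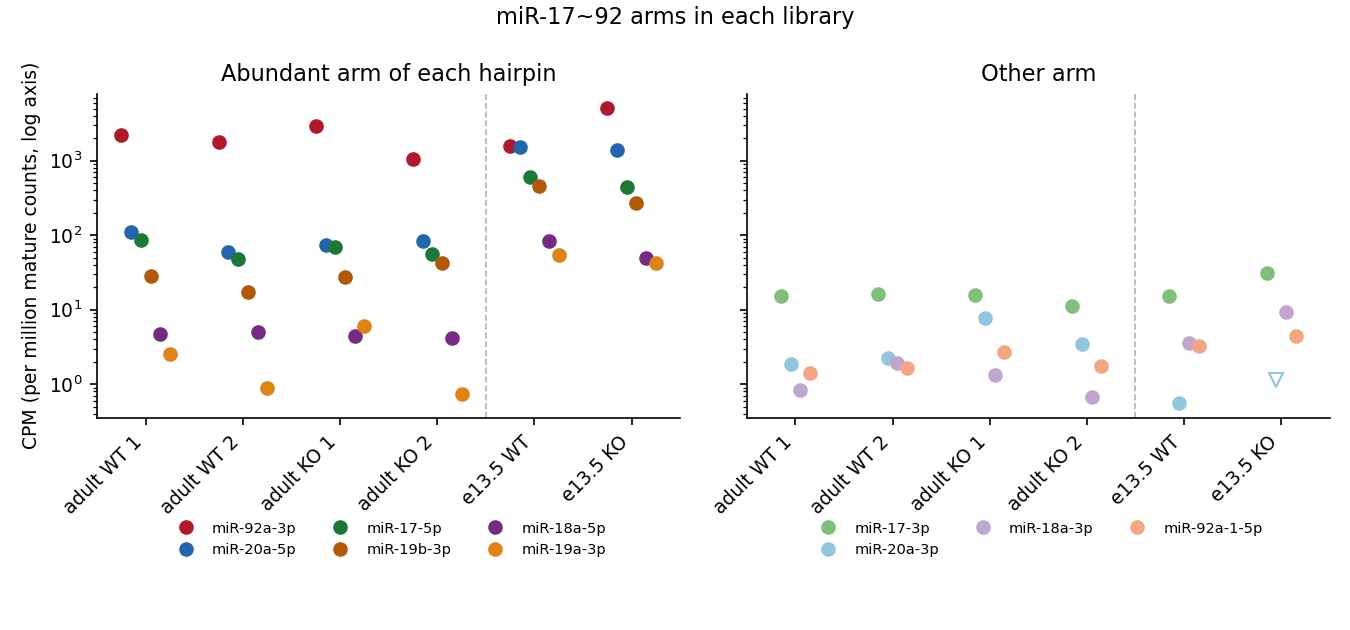
Level of each miR-17~92 arm in each of the 6 libraries, in CPM on a log axis, with 1 point per library (points are offset sideways) and the abundant arm of each hairpin on the left, the other arm on the right. An open triangle marks a count of 0, drawn at the level of 3 counts. miR-20a-5p lies at 59.5 to 112 CPM in adults and at 1401 and 1540 CPM at e13.5, whereas miR-92a-3p overlaps between stages.

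Of the 10 tested arms, 5 were higher at e13.5, 1 was lower and 4 did not pass. Over all mature rows tested, 29.3% were called higher and 28.4% lower, 57.7% in either direction. The median log2 fold of the 10 arms was 1.64, against −0.06 over all 679 rows. Scaling moved that centre: after median-of-ratios scaling the median of all rows was 0.72 and that of the members 2.41, and on library totals they were 0.93 and 2.70. Calls over all rows were then 64.4% and 68.7% higher, against 50.8% with TMM. The 5 higher arms were called under each of these scalings, and the lower arm under TMM alone (5 of 10 with either of the others). By CPM, 7 of the 10 arms were higher in both embryonic libraries than in all adult ones and 1 was lower, where 42% and 29% of all rows with a mean of at least 10 counts did so.

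These stage calls depended on the e13.5 wild-type library. Without it, 2 of the 10 arms passed, miR-20a-5p (log2 fold 2.56, edgeR adjusted p = 0.0107) and miR-20a-3p. The other 4 guide arms kept their direction at log2 folds of 1.31 for miR-17-5p, 1.33 for miR-19b-3p, 1.96 for miR-18a-5p and 2.42 for miR-19a-3p, with edgeR adjusted p from 0.0785 to 0.179. Without the e13.5 knockout library the 5 guide arms passed. The share of all rows called without the e13.5 wild-type library is not given here, so member arms are not shown to lose more calls than other rows. Stage cannot be told apart from how and when the embryonic and adult samples were prepared.

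Besides the cardiac miRNAs above, markers of other cell types differed between stages, and their part in these results was not tested. Smooth muscle and fibroblast miRNAs (8 rows) held 7.48 to 11.8% of adult and 21.5 to 35.5% of e13.5 counts. Most of this sum was miR-143-3p, at 65759 to 110490 CPM in adults, 349750 CPM in e13.5 wild type and 210710 CPM in e13.5 knockout. By CPM, miR-199a-5p and miR-214-5p were also higher in both embryonic libraries than in all adult ones. Both miR-145a arms were lower (miR-145a-5p from a mean of 4444 to 937 CPM), and miR-143-5p, miR-199a-3p and miR-214-3p overlapped. Epithelial miRNAs (9 rows with counts) held 0.00245 to 0.00548% of adult and 0.145 to 0.204% of e13.5 counts, and leukocyte miRNAs (9 rows) 0.177 to 0.281% and 0.0131 to 0.0192%. Among the leukocyte rows, miR-146a-5p, miR-150-5p, miR-155-5p and miR-223-3p were lower in both embryonic libraries than in all adult ones. Both miR-142a arms and miR-223-5p overlapped between stages, with miR-142a-5p at means of 37.1 CPM in adults and 33.7 CPM at e13.5. Erythroid miRNAs (5 rows) held 0.565 to 2.23% in adults and 0.0748 and 1.43% at e13.5, and endothelial miR-126a (2 rows) 1.65 to 3.11% and 1.63 to 1.90%. The liver miRNA miR-122 (2 rows) was at most 0.0192% in any library. Of the tested rows, 6 of 7 epithelial and 1 of 1 liver rows were called higher at e13.5, and 2 of 5 erythroid rows higher and 2 lower. Lower were 5 of 8 leukocyte, 2 of 8 smooth muscle and fibroblast and 2 of 2 endothelial rows, and 0 rows of these lists were higher. miR-143-3p, miR-199a-5p and miR-214-5p thus did not pass. Over all tested rows 29.3% were called higher and 28.4% lower. By CPM miR-126a-3p overlapped between stages, at 14596 to 26481 in adults, 17229 in e13.5 wild type and 15358 in e13.5 knockout.

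**Figure D2:**
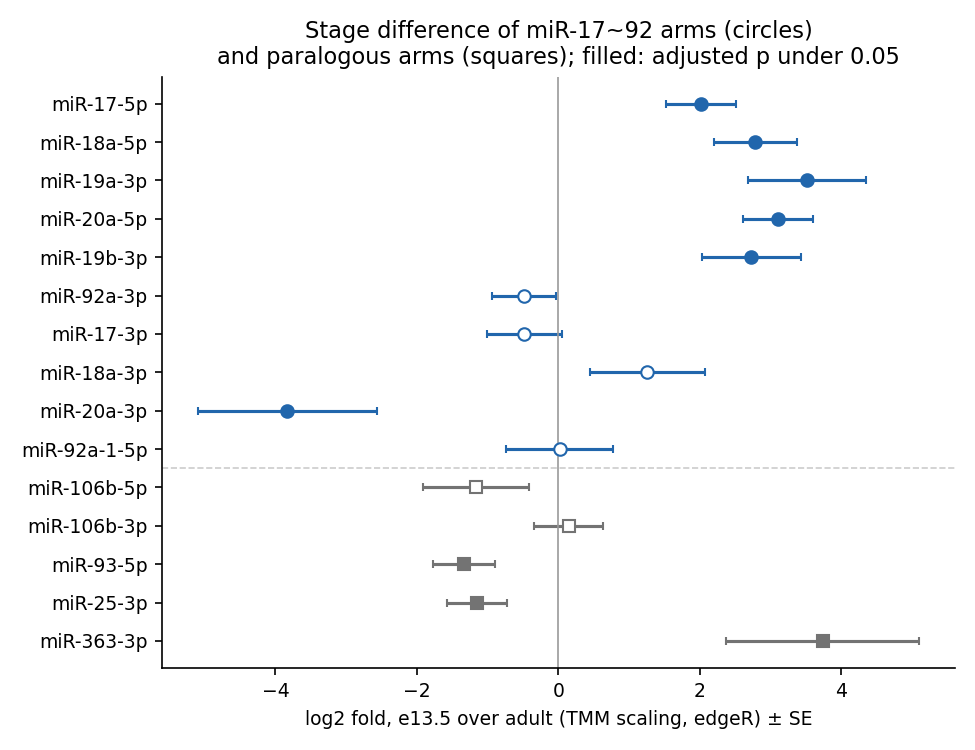
Fitted log2 fold between e13.5 and adult libraries, with SE bars, for the 10 tested miR-17~92 arms (circles) and 5 arms of the paralogous clusters (squares). Filled symbols passed an edgeR adjusted p of 0.05, and 5 guide arms sit to the right of 0, from 2.02 to 3.52, while miR-92a-3p sits at −0.48.

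The make-up of the cluster's output differed between stages. Scaling between libraries does not touch these shares, since each is taken within a library. miR-92a-3p made up 89.9% and 92.1% of the cluster's counts in adult wild types and 93.3% and 83.8% in adult knockouts. At e13.5 it made up 35.8% in wild type (Wilson 95% interval 35.4 to 36.3) and 69.1% in knockout (68.5 to 69.8). Both embryonic shares lay below all 4 adult ones, and the embryonic libraries differed from each other by more than the adults did.

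miR-20a-5p took the largest part of what miR-92a-3p did not hold, with 4.49% and 3.10% of cluster counts in adult wild types, 2.38% and 6.67% in adult knockouts, 35.6% in e13.5 wild type and 19.2% in e13.5 knockout. For each count of miR-20a-5p there were 20.02 and 29.7 counts of miR-92a-3p in adult wild types, 39.3 and 12.6 in adult knockouts, 1.006 in e13.5 wild type and 3.60 in e13.5 knockout. The balance of the sister arms with a shared seed also differed: miR-20a-5p was 1.07 to 1.51 times as abundant as miR-17-5p in adults, and 2.52 and 3.17 times at e13.5.

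**Figure D3:**
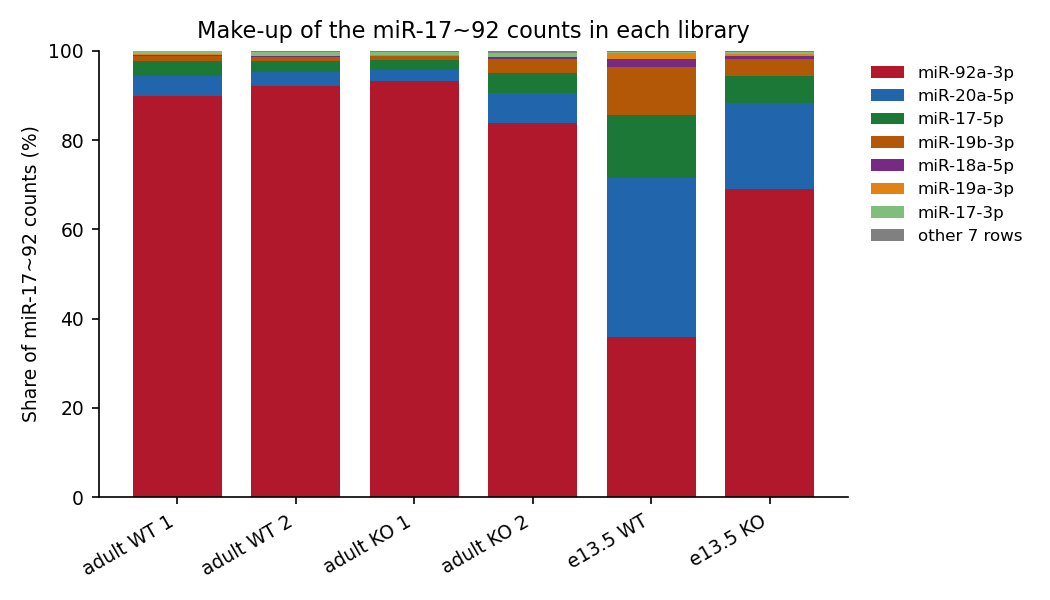
Share of the cluster's counts, in percent, taken by each arm in each of the 6 libraries, stacked to 100%. miR-92a-3p fills 83.8 to 93.3% of the adult bars, 35.8% of the e13.5 wild-type bar and 69.1% of the e13.5 knockout bar, with miR-20a-5p next in size.

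As a whole the cluster was a small part of the miRNA pool. It held 0.221% ± 0.040 (SD, n = 2) of mature counts in adult wild types and 0.217% ± 0.130 (SD, n = 2) in adult knockouts. At e13.5 it held 0.432% (Wilson 95% interval 0.428 to 0.437) in wild type and 0.730% (0.720 to 0.740) in knockout. The intervals here and elsewhere cover counting error alone, since PCR copies are not independent molecules. With miR-19b-3p and miR-92a-3p left out, so that what remains has no known second hairpin apart from the single count of miR-92a-2-5p, the shares were 0.0179% ± 0.00623 (SD, n = 2), 0.0171% ± 0.00129 (SD, n = 2), 0.231% and 0.198%. The e13.5 knockout was above the e13.5 wild type on the full sum and below it on this one.

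The hairpin rows of the table gave a further view of the shared arms. Counts on the Mir19b-1 and Mir19b-2 rows were nearly the same in each library, for example 4135 and 4146 in e13.5 wild type, so a read that fits both was counted on both. The pair for miR-92a was unequal. The Mir92-1 row held 40150 and 29759 counts in adult wild types, 41405 and 18606 in adult knockouts, 13894 in e13.5 wild type and 13546 in e13.5 knockout. The Mir92-2 row held 10268, 6339, 9023, 4391, 701 and 634 in the same order, or 21.3 to 25.6% of the arm sum in adults and 5.06 and 4.71% at e13.5. The Mir92-1 row by itself held 100 to 100.5% of its arm sum in each library, so the Mir92-2 counts came on top of it. They are not a part of the miR-92a-3p reads split off from Mir92-1. Against the arm sum the Mir92-2 counts were lower in both embryonic libraries. The sources used here do not say how the authors assigned these reads.

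Arms of the same hairpin did not all follow each other. The hairpins Mir17 and Mir20a show where both arms lie, with the 5p arm and then the 3p arm in capitals (RefSeq, GRCm38.p6, chr14:115043671-115043754 and chr14:115044157-115044263, plus strand).
Mir17: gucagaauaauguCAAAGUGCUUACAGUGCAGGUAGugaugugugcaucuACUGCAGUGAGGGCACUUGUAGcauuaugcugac
Mir20a: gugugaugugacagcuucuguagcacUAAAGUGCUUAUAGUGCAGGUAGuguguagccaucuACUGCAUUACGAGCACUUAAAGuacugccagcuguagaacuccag
miR-20a-3p had 33 and 38 counts in adult wild types, 109 and 61 in adult knockouts, 5 in e13.5 wild type and 0 in e13.5 knockout, although these last libraries held 13771 and 3744 counts of miR-20a-5p. The 3p arm was 1.62 and 3.66% of the hairpin's arm counts in adult wild types and 9.37 and 3.97% in adult knockouts. At e13.5 it was 0.0363% in wild type (Wilson 95% interval 0.0155 to 0.0849) and no count was seen in knockout, where a count of 0 allows up to 1.12 CPM (3 counts). All 4 adult shares thus lay above both embryonic ones.

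The fitted log2 fold of miR-20a-3p between stages was −3.83 (SE 1.26, edgeR adjusted p = 0.0292). This call was less firm than those of the guides. Its edgeR adjusted p rose to 0.0666 after median-of-ratios scaling and 0.0628 on library totals, and to 0.0663 and 0.0905 without adult wild-type replicate 1 or 2. It was 0.0530 without adult knockout replicate 2 and 0.137 without the e13.5 knockout library. The size of the fold moved from −2.46 to −9.34 over the libraries left out in turn, since the e13.5 knockout count is 0.

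For Mir17 the 5p arm had 5.56 and 2.94 times the counts of the 3p arm in adult wild types, 4.41 and 4.93 times in adult knockouts, 39.6 times in e13.5 wild type and 14.4 times in e13.5 knockout. miR-17-3p itself was at 15.2 and 16.1 CPM in adult wild types, 15.5 and 11.2 CPM in adult knockouts, 15.4 CPM in e13.5 wild type and 30.7 CPM in e13.5 knockout. The levels of this star arm overlapped between stages while its partner rose, and its log2 fold was −0.48 (SE 0.53, edgeR adjusted p = 0.453), positive on library totals (0.63) and after median-of-ratios scaling (0.30). Mir18 gave 5p to 3p ratios of 5.60 and 2.63 in adult wild types, 3.37 and 6.17 in adult knockouts, 23.3 in e13.5 wild type and 5.28 in e13.5 knockout, so there the stages overlapped. Between stages miR-18a-3p had a log2 value of 1.26 (SE 0.81, edgeR adjusted p = 0.208) with 12 to 32 counts a library, and passed by DESeq2 (log2 fold 2.05, adjusted p = 0.0468). miR-92a-1-5p, with 12 to 39 counts a library, stood at 0.02 (SE 0.76, edgeR adjusted p = 0.988).

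Counting hairpins with at least 10 counts over both arms in each library, the share of the abundant arm was higher in both embryonic libraries than in all adult ones for 3 of 4 member hairpins, Mir17, Mir20a and Mir19a. The same held for 35.8% of 190 hairpins in the table, and 28.4% went the other way. Mir19a counts among the 3 only through the 0.5 added to each arm, because miR-19a-5p had 1 count in all. With at least 10 counts asked of the rarer arm, 2 of 3 member hairpins and 33.5% of 161 hairpins did so. In the same setting 31.1% went the other way. With at least 100 counts a hairpin in each library, Mir17 and Mir20a were left and both did so, beside 40.7% of 108 hairpins. A difference in arm balance between stages was therefore common in these libraries. Hairpins were ranked by the signed difference of the e13.5 mean log2 ratio from the adult median, largest rise first. Mir20a then ranked 4 and Mir17 59 among the 190. The rank of Mir20a also rests on the 0.5 added, since miR-20a-3p had 0 counts in e13.5 knockout.

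**Figure D4:**
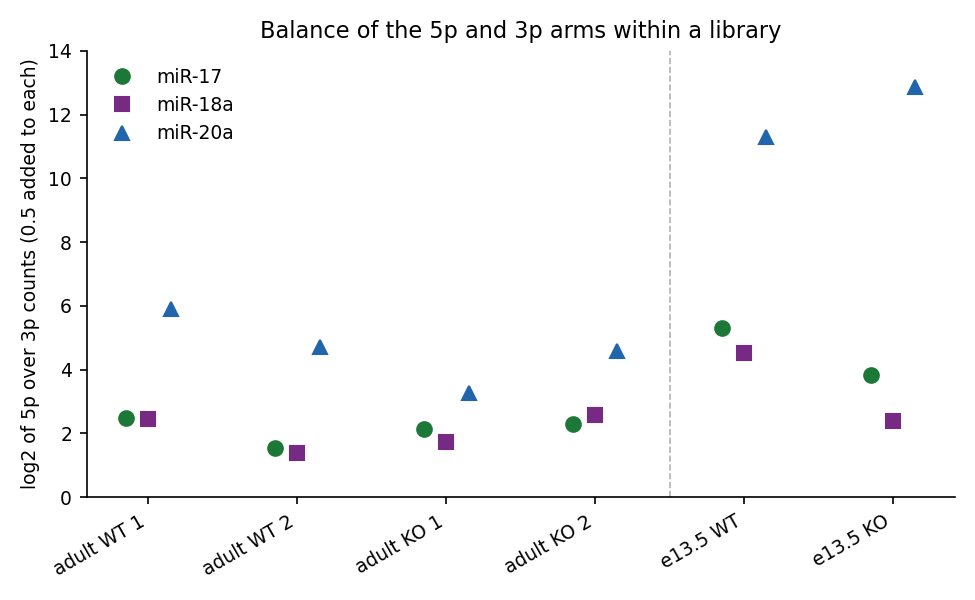
Balance of the arms of miR-17, miR-18a and miR-20a in each of the 6 libraries, as log2 of 5p over 3p counts with 0.5 added to each, 1 point per library. miR-20a lies between 3.27 and 5.90 in adults and at 11.3 and 12.9 at e13.5, and miR-18a overlaps between stages.

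Paralogous clusters supply miRNAs with the same seeds. The miR-106b~25 cluster lies in the gene of the replication helicase subunit Mcm7 on chromosome 5, and its guides with member seeds are printed from RefSeq (GRCm38.p6) for comparison.
miR-106b-5p: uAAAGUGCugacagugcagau
miR-93-5p: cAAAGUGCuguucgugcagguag
miR-25-3p: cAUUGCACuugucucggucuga
miR-93-5p, which has the miR-17 seed, was at 1143 and 693 CPM in adult wild types, 1081 and 639 CPM in adult knockouts, 591 CPM in e13.5 wild type and 888 CPM in e13.5 knockout. Its stages overlapped in CPM, and the TMM-scaled log2 fold was −1.33 (SE 0.44, edgeR adjusted p = 0.0296). miR-25-3p, with the miR-92 seed, gave a log2 value of −1.15 (SE 0.42, edgeR adjusted p = 0.0405). Both calls were lost with library totals (log2 folds −0.28 and −0.10) and with each library left out in turn. miR-106b-5p and miR-106b-3p had log2 folds of −1.16 and 0.15 and did not pass (edgeR adjusted p = 0.208 and 0.805). In this cluster 2 of 6 tested arms were lower, none higher and 4 did not pass, with a median log2 fold of −1.15. Of all rows tested by stage, 28.4% were called lower and 29.3% higher.

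The arms of miR-106a, miR-18b, miR-20b and miR-363 from the X-linked cluster were rare, at 2.27e-05 to 0.000342% of adult and 0.00183 and 0.00662% of e13.5 counts over 8 rows. This sum leaves out miR-19b-3p and miR-92a-3p, whose second hairpins lie in the same cluster. Of the 8 rows, 4 were tested, of which 1 was higher at e13.5 and 3 did not pass, where 29.3% of all tested rows were called higher. The higher one, miR-363-3p (miR-92 seed), had 29, 0, 25 and 1 counts in adult wild-type replicates 1 and 2 and knockout replicates 1 and 2, 53 in e13.5 wild type and 158 in e13.5 knockout (log2 fold 3.74, SE 1.36, edgeR adjusted p = 0.0415). It no longer passed without adult wild-type replicate 2 (adjusted p = 0.0616), adult knockout replicate 1 (0.0815), adult knockout replicate 2 (0.0748) or the e13.5 knockout library (0.367). miR-106a-5p, which differs from miR-17-5p by U10A alone, had at most 19 counts in a library. When such near-identical rows were summed, 5 member arms were higher and 1 lower, as before.

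Put together by seed, the source of the miR-17 family in these cells differed between stages. Over 7 mature rows whose RefSeq sequence has the seed AAAGUGC, the cluster's miR-17-5p and miR-20a-5p supplied 12.98% and 11.6% of counts in adult wild types and 10.5% and 14.5% in adult knockouts. At e13.5 they supplied 72.7% in wild type (Wilson 95% interval 72.2 to 73.3) and 65.5% in knockout (64.5 to 66.6). The family as a whole stood at 1514 and 920 CPM in adult wild types, 1351 and 961 CPM in adult knockouts, 2958 CPM in e13.5 wild type and 2814 CPM in e13.5 knockout. For each count of miR-93-5p there were 0.0680 to 0.131 counts of miR-20a-5p in adults, and 2.61 and 1.58 at e13.5.

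For the other seeds the cluster's part overlapped between stages. The miR-19 seed had no row outside the cluster's names, and its 2 rows summed to 17.9 to 42.7 CPM in adults and 316 and 517 CPM at e13.5. miR-18a-5p supplied at least 95.6% of the miR-18 seed in each library. For the miR-92 seed, miR-92a-3p supplied 51.4 to 59.6% in adults, 57.0% in e13.5 wild type and 72.9% in e13.5 knockout, with most of the rest from miR-25-3p. These shares rest on exact seed matches among the 1666 of 1952 mature rows that had a RefSeq sequence.

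**Figure D5:**
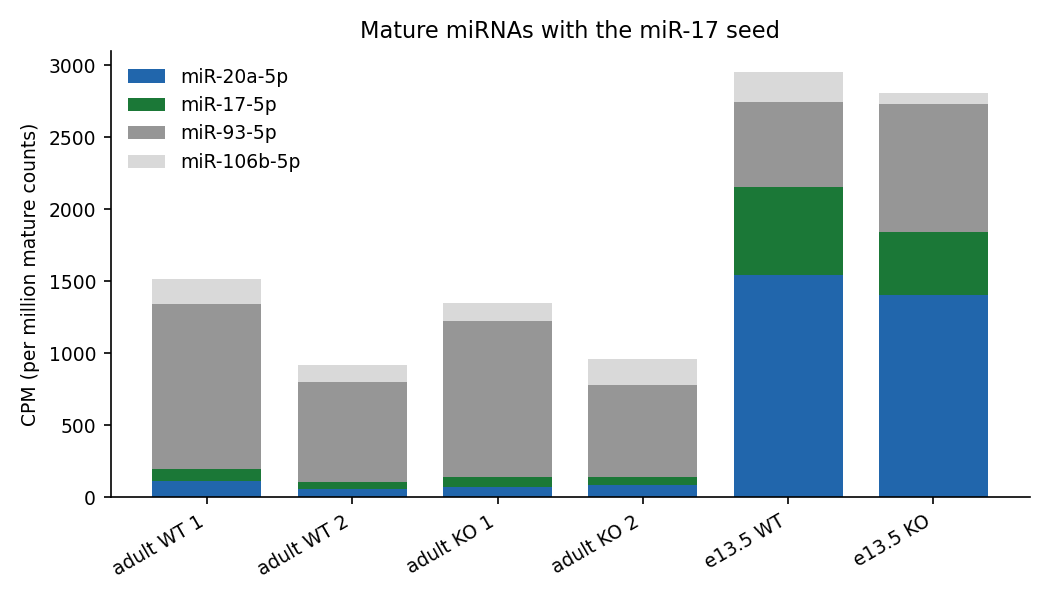
Stacked CPM of the 4 most abundant mature miRNAs with the seed AAAGUGC in each of the 6 libraries (miR-106a-5p and miR-20b-5p are too rare to show). Blue and green, miR-20a-5p and miR-17-5p, are a small part of each adult bar (10.5 to 14.5% of the family) and the larger part of both e13.5 bars (65.5 and 72.7%).

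The study compared lncSync knockout with wild type, and for this cluster no difference passed the test in adults. None of the 10 tested arms passed between adult knockout and wild-type libraries, where 4 of 544 rows (0.735%) did by edgeR. 1 arm, miR-20a-3p, had an unadjusted p under 0.05 by edgeR, and DESeq2 also called 0 of 10. The median log2 fold of the arms was 0.19, against 0.08 over all rows tested. For miR-20a-5p the log2 fold was 0.21 (SE 0.51), for miR-17-5p 0.17 (SE 0.46), for miR-18a-5p 0.09 (SE 0.58) and for miR-92a-3p 0.08 (SE 0.44); edgeR gave all 4 an adjusted p of 0.999. These folds were slightly negative with library totals, so no direction holds.

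The largest adult folds were those of miR-20a-3p (1.54, SE 0.62), miR-19b-3p (0.99, SE 0.58) and miR-19a-3p (0.98, SE 0.96), also at an edgeR adjusted p of 0.999. miR-20a-3p was at 1.84 and 2.26 CPM in wild types and 7.60 and 3.46 CPM in knockouts. For miR-19b-3p the higher mean rested on knockout replicate 2, without which its log2 fold was 0.07. Without knockout replicate 1 its log2 fold was 1.52 (edgeR adjusted p = 0.0124), a fit in which the lone knockout library is assumed to vary like the wild types. The knockout replicates went opposite ways for the miR-19 pair, with miR-19a-3p higher in replicate 1 and miR-19b-3p higher in replicate 2.

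At e13.5 the knockout library differed from the wild type in the make-up of the cluster, with 1 library per genotype and so no replicate check. On library totals miR-92a-3p was 3.26 times higher in the knockout (95% counting interval 3.18 to 3.33). The guides miR-17-5p, miR-18a-5p, miR-19a-3p and miR-19b-3p were lower, at 0.724 (0.680 to 0.771), 0.593 (0.489 to 0.715), 0.780 (0.631 to 0.959) and 0.592 (0.547 to 0.641) of the wild-type CPM. miR-20a-5p was at 0.910 (0.878 to 0.944). The star arms miR-17-3p and miR-18a-3p were higher, at ratios of 1.99 (1.495 to 2.63) and 2.62 (1.49 to 4.56). Between the same libraries, wild type first, erythroid miRNAs held 0.0748 and 1.43% of counts (miR-451a 378 and 7547 CPM), cardiac miRNAs 14.6 and 9.86%, and smooth muscle and fibroblast miRNAs 35.5 and 21.5%. Their part in these differences was not tested.

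With TMM scaling the knockout minus wild-type log2 folds at e13.5 were −1.27 for miR-17-5p, −1.55 for miR-18a-5p, −1.15 for miR-19a-3p, −1.56 for miR-19b-3p, −0.94 for miR-20a-5p and 0.90 for miR-92a-3p. Of 9 arms with at least 10 counts in either library, 6 were negative, where 64.1% of 565 rows were. At least 2-fold lower were 4 of the 9, against 31.3% of all rows, and at least 2-fold higher 0 of the 9, against 17.5%. The median over the 9 arms was −0.94, against −0.42 over all 565 rows, and with library totals these were −0.14 and 0.37. The ordering of the arms, with miR-92a-3p above all 5 other guides, does not depend on the scaling. Among the paralogues miR-106b split by arm, with miR-106b-5p at 1881 counts in wild type and 201 in knockout, and miR-106b-3p at 907 and 930. Their CPM ratios of knockout to wild type were 0.358 (0.308 to 0.414) and 3.43 (3.13 to 3.77). By the same ratio both arms of miR-93 and miR-25 were higher in knockout. The ratios were 1.505 for miR-93-5p, 2.56 for miR-93-3p, 1.572 for miR-25-3p and 3.348 for miR-25-5p (7 counts in each library). With TMM scaling miR-93-5p and miR-25-3p were at log2 folds of −0.21 and −0.15.

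Over both stages 0 of 10 arms differed by genotype, where 5 of 679 rows (0.736%) did by edgeR, and DESeq2 also called 0 of 10. No member arm had an unadjusted p under 0.05 in that fit, and the log2 folds ran from −0.50 for miR-18a-5p to 0.68 for miR-20a-3p. The genotype by stage interaction, which asks whether the knockout difference at e13.5 departs from that in adults, called 0 of 10 arms and 0 of 769 rows (0%) by edgeR, with 46 rows at an unadjusted p under 0.05 and 4 called by DESeq2. At an unadjusted p under 0.05 in edgeR there were 2 member arms, miR-19b-3p (−2.50, SE 1.07) and miR-20a-3p (−6.85, SE 2.92), each at an adjusted p of 0.792. DESeq2 called 0 of the 10. Without adult knockout replicate 1 miR-19b-3p passed (log2 −3.05, edgeR adjusted p = 0.000462). The spread in the interaction test comes from the adult replicates alone, so the e13.5 differences above are not shown to exceed what 2 wild-type embryonic libraries might differ by.

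The miRNAs most like miR-20a-5p over the 6 libraries, outside the cluster and its paralogues, were miR-34c-5p, miR-495-3p, miR-494-3p, miR-299a-3p and miR-1839-5p. Their Pearson correlations with it in log2 TMM-scaled CPM were 0.9965, 0.9929, 0.9897, 0.9890 and 0.9866, the highest of 312 miRNAs with a mean of at least 10 CPM. All 5 are lower in adults than at e13.5, and a correlation over 6 libraries that fall into 2 stages mostly reflects that split. miR-34c-5p was at 4.35 to 9.59 CPM in adults and 322 and 251 CPM at e13.5. Within the cluster the same measure was 0.9803 for miR-17-5p, 0.9682 for miR-18a-5p, 0.9613 for miR-19b-3p and 0.8617 for miR-19a-3p, against −0.7455 for miR-92a-3p. For the star arms it was −0.8333 for miR-20a-3p, −0.8335 for miR-17-3p, 0.6555 for miR-18a-3p and 0.0280 for miR-92a-1-5p.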

How the data were processed

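Small RNA was extracted with TRIZOL, treated with DNase and made into libraries with the NEXTFLEX Small RNA kit, per the labels' protocols. The authors deposited 1 table of raw read counts per hairpin and mature miRNA, 1 column per library, not normalised. The submitters' processing notes name the mm10 genome. The sources used here give neither aligner nor counting tool, nor what was done with reads matching more than 1 miRNA. No column belonged to another sample.

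Of 3208 rows, 1974 mature rows were used, and 22 whose counts lay within 1% of another row's (total of at least 20, counts in at least 3 libraries) were merged into it, which left 1952. No member row was merged. Groups were taken from the sample titles. Differential abundance was tested over all rows in R 4.3.3 by the quasi-likelihood test of edgeR 4.0.16 (glmQLFit, glmQLFTest, two-sided), after filterByExpr with a minimum count of 10 and TMM scaling, at a Benjamini-Hochberg adjusted p of 0.05. Stage and genotype over stages shared an additive model of 6 libraries (3 residual degrees of freedom), adult genotype used 4 libraries (2), and the interaction used 4 group means (2). Log2 CPM used a prior count of 2. At e13.5, with 1 library per genotype, exact 95% counting intervals of CPM ratios are given and no p-value.

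Depth ran from 2671957 to 17933518 mature counts, so 3 counts, the upper limit for a count of 0, stand for 0.167 to 1.12 CPM. Other scalings, no filter, DESeq2 1.42.0, unmerged rows, summed paralogues, a replicate block and leaving out each library were tried. The fits were also run on simulated counts with a common spread for all rows and as many planted rises as falls. Those runs do not bear on how the folds depend on scaling. The named miRNAs are all member rows, the paralogues of the clusters of miR-106b and miR-106a, and the 5 miRNAs most correlated with the most abundant arm unique to the cluster. Members, lists and tests were chosen with earlier results of these data known.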

Additional observations from a re-analysis of the deposited data

How the results depend on the processing

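Depth limits the rare arms: miR-20a-3p, miR-18a-3p, miR-19a-3p in adults and miR-92a-1-5p rest on few counts, and 1 e13.5 library per genotype leaves the embryonic spread unmeasured. Among member folds, those of the 5 guide arms higher at e13.5 kept their direction under each alternative run. The stage count of 6 arms fell to 2 in the knockout libraries alone, and lay between 2 and 6 over the libraries left out. It was 5 to 7 under the remaining settings. The adult genotype count of 0 lay between 0 and 1 over the libraries left out, as did the interaction count, and the count over stages was 0 throughout. The interaction could not be fitted without an e13.5 library. The cause of these changes was not tested. Asking for 10 counts of the rarer arm, a setting chosen after seeing the data, left 2 of 3 hairpins with a higher share of the abundant arm at e13.5.

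A replicate block on the adult replicate numbers left the counts of member arms at 6, 0, 0 and 0 for stage, adult genotype, genotype over stages and interaction. The labels do not say what the numbers share, and replicate 1 minus replicate 2 in wild types and knockouts correlated at 0.007 over 544 miRNAs. Under the block the paralogues miR-93-5p, miR-25-3p and miR-363-3p no longer passed by stage, and in the fit over stages miR-18a-3p changed sign to 0.04 and miR-19b-3p to −0.01.

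Sign changes otherwise fell on folds that had not passed. By stage, miR-17-3p was at 0.30 both by DESeq2 and after median-of-ratios scaling, 0.63 on library totals and 0.13 in knockouts alone, and miR-92a-3p at 0.29, 0.58 and 0.41 in the same settings. miR-92a-1-5p was at −0.02 without a filter and −0.05 in knockouts alone, and miR-106b-3p at −0.41 in wild types alone. With library totals the adult genotype folds were −0.09 for miR-17-5p, −0.16 for miR-18a-5p, −0.12 for miR-20a-5p and −0.03 for miR-92a-3p. Over stages, miR-17-3p was at −0.06 without a filter and miR-18a-3p at 0.16 with library totals. Leaving out each library in turn gave stage folds from −0.62 to 0.04 for miR-17-3p, −0.95 to 0.14 for miR-92a-3p, −0.47 to 0.55 for miR-92a-1-5p and −0.42 to 0.74 for miR-106b-3p. Adult genotype folds then ran from −0.22 to 0.48 for miR-17-5p, −0.23 to 0.11 for miR-17-3p, −0.34 to 0.38 for miR-18a-5p, −0.91 to 0.41 for miR-18a-3p, −0.58 to 1.73 for miR-19a-3p, −0.42 to 0.60 for miR-20a-5p and −0.32 to 0.31 for miR-92a-3p. Folds over stages ran from −0.77 to 0.10 for miR-17-5p, −0.18 to 0.18 for miR-17-3p, −1.0 to 0.01 for miR-18a-5p, −0.45 to 0.44 for miR-18a-3p and −0.82 to 0.88 for miR-19a-3p. For miR-19b-3p they ran from −0.76 to 0.93, for miR-20a-5p from −0.79 to 0.14, for miR-20a-3p from −0.05 to 1.45 and for miR-92a-3p from −0.03 to 0.44.

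The median e13.5 fold of −0.94 was −0.80 after median-of-ratios scaling and −0.14 on library totals. Leaving out miR-19b-3p and miR-92a-3p took the cluster's share of counts to 0.0179% in adult wild types, 0.0171% in adult knockouts, 0.231% in e13.5 wild type and 0.198% in e13.5 knockout. Over all rows, stage calls went from 392 to 231 in knockouts alone and 261 without the e13.5 knockout library. Adult genotype calls went from 4 to 9 without a filter, 35 without knockout replicate 1 and 47 without replicate 2. Calls over stages went from 5 to 3 without either adult wild-type library. Interaction calls, 0 in the fit given above, were 1 with library totals and with the block, 2 without a filter, 4 by DESeq2, and 87 and 40 without knockout replicate 1 or 2.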
